A study of Mus musculus with 60 samples.

Results

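Intracisternal A particle (IAP) and early transposon (ETn) subfamilies were described in mouse embryonic stem cells (mESC) and during their differentiation with retinoic acid (RA). The members were every repeat subfamily whose name starts with IAP or contains ETn, with at least 100 counts summed over all libraries. This gave 29 of 1146 repeat subfamilies among 56633 features in all. Of these, 25 were IAP, with 10 internal regions and 15 long terminal repeats (LTRs), and 4 were ETn, all internal regions (MMETn-int, ETnERV-int, ETnERV2-int and ETnERV3-int). No subfamily of such a name fell under the minimum, and the totals ran from 276 counts for IAPEY5_I-int to 4540845 counts for MMETn-int.

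Strand-specific RNA-seq of rRNA-depleted total RNA was measured in 60 libraries of 20 groups, with 3 biological replicates per group. All cells derived from the E14JU mESC line (129/Ola) and carried a degradation tag on POLE4, a subunit of DNA polymerase epsilon that passes parental histones to the leading strand. The WT background had otherwise unmutated cells (Ctrl with DMSO, dPOLE4 with 1 µM dTAG), and the MCM2-2A background carried a mutation in the MCM2 helicase subunit that impairs histone transfer to the lagging strand (Ctrl MCM2-2A with DMSO, dPOLE4 MCM2-2A with dTAG). Each was collected after 24 h of DMSO or dTAG in serum and LIF (T0), after a further 12 h (T12), 24 h (T24) or 60 h (T60) in RA without LIF, or after 96 h of DMSO or dTAG with no RA. The 96 h libraries came in a table of their own and were normalized separately, so their levels are not set against T0. The tag was put into each background separately and clones were picked, so a difference between the lines cannot be told apart from a difference between clones. The tag removes POLE4 protein and leaves its mRNA, so these counts hold no check of the depletion.

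IAP and ETn elements are LTR retrotransposons of the mouse, copied through an RNA intermediate and inserted at many places in the genome. IAP elements carry genes for a particle that stays inside the cell, and in mESC they are held down by TRIM28 and SETDB1, which bring repressive histone H3 lysine 9 methylation, and by DNA methylation. ETn elements proper lack working protein genes and depend on related elements for their mobility. They are known for their RNA in early embryos and pluripotent cells. The ETn members here were taken by name, and the lack of protein genes may not hold for ETnERV-int, ETnERV2-int and ETnERV3-int. Each named subfamily pools all its copies, on every chromosome. Reads that map to several copies were shared out among them, so the split between near-identical subfamilies is uncertain. Counts also grow with copy number and length, so shares of counts given for different subfamilies are not a comparison of their expression per copy. In these bulk samples, fewer expressing cells and less RNA per cell cannot be told apart.

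The depth was 10461077 to 46609151 counts per library in the RA experiment (48 libraries) and 7126100 to 23598266 counts per library at 96 h (12 libraries). A list of 8 pluripotency genes summed to between 3648 and 4375 CPM (counts scaled to the normalized library size) at T0 and to between 318 and 1166 CPM at T60. A list of 5 RA response genes summed to between 5.24 and 10.3 CPM at T0 and between 450 and 631 CPM at T60. A list of 5 fibroblast or feeder genes summed to between 32.1 and 67.0 CPM at T0. Per comparison, 25 to 28 members passed the filter on low counts. IAPEY5_LTR passed in none of the 36 comparisons. A feature is named as called where edgeR's quasi-likelihood F test gave an adjusted p under 0.01 together with a log2 fold change beyond 0.58 in either direction.

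ETn RNA fell steeply over 60 h of RA in Ctrl cells. MMETn-int, which held 71.9% of all ETn counts, stood at 6487, 7133 and 6041 CPM at T0 and at 447, 573 and 429 CPM at T60. ETnERV-int, with 26.2% of ETn counts, stood at 2222, 2321 and 2359 CPM at T0 and at 181, 184 and 170.0 CPM at T60. Every T0 library of these regions lay far above every T60 library. ETnERV3-int went from 207, 223 and 210.5 CPM to 18.4, 24.4 and 23.5 CPM. ETnERV2-int went from 53.1, 69.6 and 54.8 CPM to 3.48, 4.21 and 3.02 CPM. The groups did not overlap for any of the ETn regions. The log2 fold changes were -3.76 ± 0.12 (SE, adjusted p = 6.1e-13) for MMETn-int, -3.69 ± 0.07 for ETnERV-int, -3.29 ± 0.09 for ETnERV3-int and -4.05 ± 0.14 for ETnERV2-int. RLTRETN_Mm, an ETn LTR that the name rule leaves out because it is case-sensitive, moved from 251 ± 8.31 to 19.0 ± 3.65 CPM (mean ± SD, n = 3).

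**Figure D1:**
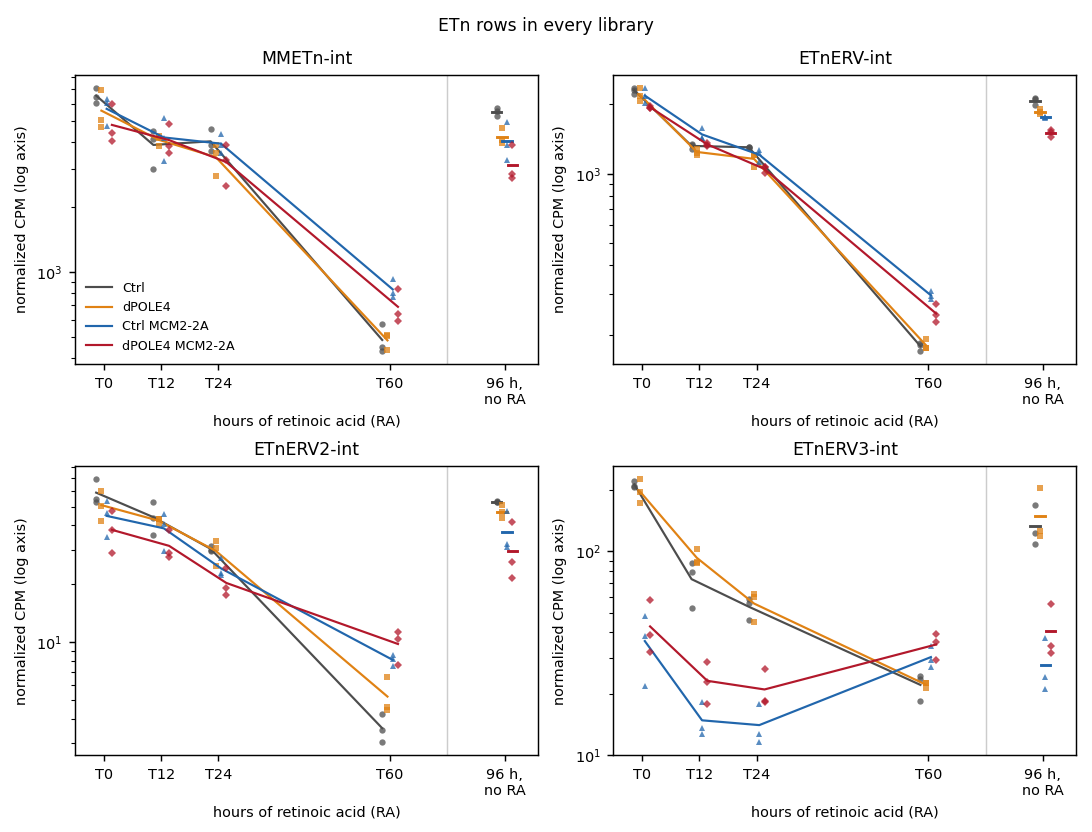
Normalized CPM (log axis) of the 4 ETn internal regions at T0, T12, T24 and T60 of RA and after 96 h without RA, with 1 point per library, lines through group means and short bars for the 96 h means. MMETn-int, ETnERV-int and ETnERV2-int drop between T24 and T60 in all 4 kinds of cells, and ETnERV3-int starts at 213 CPM in Ctrl but at 36.2 CPM in Ctrl MCM2-2A.

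The ETn regions differed in the timing of their fall in Ctrl. Between T0 and T12, 4 of 25 tested members were called, against 11.3% of all features. MMETn-int fell by 0.77 ± 0.12, ETnERV-int fell by 0.81 ± 0.05 and ETnERV3-int fell by 1.55 ± 0.13 on the log2 scale, and IAPEy-int rose by 1.05 ± 0.15. Between T12 and T24 none of the ETn regions was called. MMETn-int held 59.1% of its T0 mean at T12 and 61.4% at T24, and ETnERV-int held 57.4% and 56.6%. ETnERV2-int went from 74.6% to 51.2%, with 43.8, 35.7 and 52.9 CPM at T12 and 29.7, 31.5 and 29.7 CPM at T24. These did not overlap, and the change of -0.55 ± 0.12 (adjusted p = 0.0054) was just under the fold cutoff. ETnERV3-int went from 34.2% to 25.1%, with libraries that overlapped (-0.46 ± 0.15, adjusted p = 0.047). IAPEy-int was the only member called in that interval (1 of 26, against 6.97% of all features, log2 fold change 0.73 ± 0.13). With the replicate number as a block, IAPA_MM-int was called there as well (2 members in all), and the count was 0 without Ctrl T24 replicate 1 or 3, 2 without Ctrl T12 replicate 1 and 3 without Ctrl T12 replicate 2. From T24 to T60, 12 of 26 were called, against 35.7% of all features, including all 4 ETn regions with log2 fold changes between -3.04 (ETnERV2-int) and -1.25 (ETnERV3-int).

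IAP subfamilies did not share a direction over RA. In Ctrl, 5 of 21 tested IAP subfamilies rose and 5 fell between T0 and T60 (26.9% and 23.7% of all features did so), and with the ETn regions 14 of 25 members were called, against 50.6% of all features and 60.6% of the other repeat subfamilies tested. The median log2 fold change was -0.02 over IAP, -3.73 over ETn and -0.01 over all features. IAPEz-int, the internal region that held 73.1% of IAP counts, stood at 464, 441 and 461 CPM at T0 and at 759, 762 and 761 CPM at T60. Its groups did not overlap, and its log2 fold change was 0.74 ± 0.06 (adjusted p = 2.1e-08). IAPLTR1_Mm, an LTR with 8.31% of IAP counts, went from 57.1, 52.4 and 48.1 CPM to 89.6, 81.3 and 66.2 CPM (0.59 ± 0.10). Its change was close to the fold cutoff and was under it with scaling factors from genes alone (0.56), with no filter on low counts (0.56), and without T0 replicate 2 (0.576) or 3 (0.54) or T60 replicate 1 (0.50) or 2 (0.576).

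Among the IAP subfamilies called in Ctrl, the largest log2 rises were in IAPEY4_I-int and IAPEy-int. IAPEY4_I-int stayed between 20.1 and 33.9 CPM in the Ctrl libraries of T0, T12 and T24 and reached 83.6, 103 and 75.6 CPM at T60. Its log2 fold change from T0 to T60 was 1.596 ± 0.12, and that of IAPEY4_LTR, the LTR of the same name, was 1.34 ± 0.20. IAPEy-int rose earlier, from 4.59, 4.77 and 5.51 CPM at T0 to 17.6, 15.1 and 19.3 CPM at T24 and 14.9, 12.01 and 12.5 CPM at T60 (1.41 ± 0.14 at T60). The IAP subfamilies that fell were IAPLTR3 (-2.82 ± 0.41, from 1.59, 1.42 and 1.55 CPM to 0.120, 0.269 and 0.283 CPM), IAPEY3-int (-1.39), IAPEY2_LTR (-1.37), IAPLTR3-int (-1.24) and IAPLTR2a (-1.15). The values of IAPLTR3 rest on few reads.

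**Figure D2:**
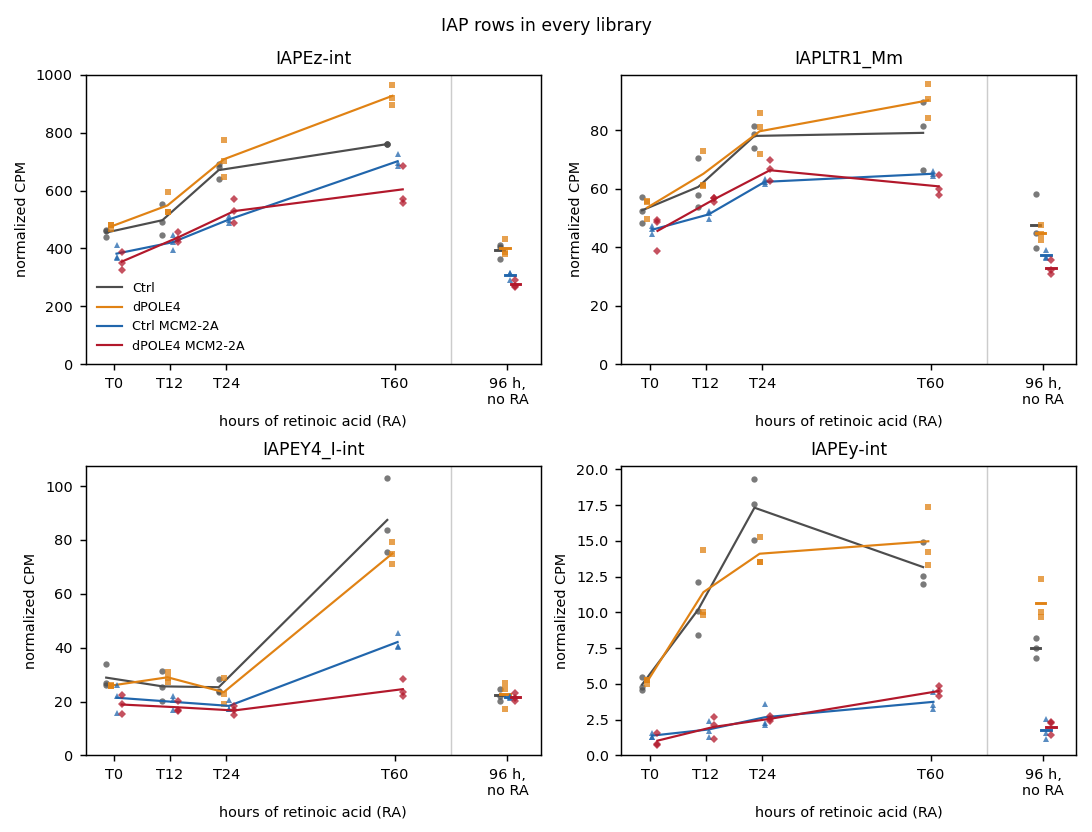
Normalized CPM of IAPEz-int, IAPLTR1_Mm, IAPEY4_I-int and IAPEy-int at each time of RA and after 96 h without RA, with 1 point per library and lines through group means. IAPEz-int climbs in all 4 kinds of cells, IAPEY4_I-int climbs after T24 to a different height in each line, and IAPEy-int is lower in every MCM2-2A group than in the WT group of the same time.

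The response of ETn to RA was smaller in MCM2-2A cells. Over the same 60 h, 16 of 27 members were called in dPOLE4 (48.1% of all features), 9 of 26 in Ctrl MCM2-2A (47.5%) and 7 of 27 in dPOLE4 MCM2-2A (42.2%), where the replicate block gave 9 by adding IAPEY_LTR and IAPLTR4_I. The ETn median was -3.44, -2.61 and -2.42 in that order. At T60 MMETn-int held 7.37% of its T0 mean in Ctrl, 8.61% in dPOLE4, 14.6% in Ctrl MCM2-2A and 14.3% in dPOLE4 MCM2-2A. ETnERV3-int held 10.3%, 11.2%, 83.4% and 81.5% of its T0 mean. In Ctrl MCM2-2A it stood at 21.9, 38.6 and 48.2 CPM at T0 and at 29.4, 34.4 and 26.9 CPM at T60, ranges that overlap, with a log2 fold change of -0.25 ± 0.21 (adjusted p = 0.30). It lay between 11.5 and 18.1 CPM in the T12 and T24 libraries of these cells, below each T0 and T60 library.

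The difference between the lines in their RA response was tested as an interaction of line and time. With DMSO, 6 of 26 members were called, against 9.1% of all features. All 4 ETn regions fell less in MCM2-2A, by a log2 difference of 3.01 ± 0.27 for ETnERV3-int, 1.57 ± 0.25 for ETnERV2-int, 0.97 ± 0.17 for MMETn-int and 0.80 ± 0.10 for ETnERV-int. IAPLTR3 also fell less (2.26 ± 0.57), but its call was lost in 9 of the 12 fits that each left out 1 library and under DESeq2. IAPEY4_LTR rose less (-1.18 ± 0.28), a call lost in 7 of those 12 fits. With dTAG, 4 of 28 were called, against 8.22% of all features, with ETnERV3-int at 2.82 ± 0.22, ETnERV2-int at 1.32 ± 0.27 and ETnERV-int at 0.60 ± 0.11. ETnERV-int was under the fold cutoff without dPOLE4 T0 replicate 2 (0.56) or dPOLE4 MCM2-2A T60 replicate 1 (0.55), and ETnERV2-int lost its call without dPOLE4 T60 replicate 2 (adjusted p = 0.012). The replicate block gave 6 called members, with IAPLTR3-int (1.34) and IAPEY_LTR (-1.07) added, and DESeq2 gave 6, with IAPLTR3-int (1.33) and IAPEY4_LTR (-1.06) added. MMETn-int differed by 0.70 ± 0.21 under dTAG (adjusted p = 0.029) and was called with no filter on low counts or without dPOLE4 MCM2-2A T0 replicate 3. IAPEY4_I-int rose less in dPOLE4 MCM2-2A than in dPOLE4 (-1.20 ± 0.16). The 8 pluripotency genes were also higher in the MCM2-2A line at T60, with group means of 355 CPM in Ctrl, 384 CPM in dPOLE4, 816 CPM in Ctrl MCM2-2A and 1046 CPM in dPOLE4 MCM2-2A, and with all 8 genes above 1 CPM in each of these groups. The T60 mean of MMETn-int was 829 CPM in Ctrl MCM2-2A and 688 CPM in dPOLE4 MCM2-2A. These groups overlapped and were not shown to differ (-0.26 ± 0.12, adjusted p = 0.21). In the same 4 groups at T60, the list of 5 fibroblast genes gave 422, 303, 178 and 79.2 CPM. A list of 6 extraembryonic endoderm genes gave 322, 265, 556 and 439 CPM. A list of the 2-cell-like state, which holds Zscan4 genes and the MERVL retrotransposon, gave 6049, 5775, 4600 and 6108 CPM. At T0 that list gave 1159, 1080, 1372 and 1186 CPM, so its sum was higher at T60 in Ctrl as well. Each sum follows the most abundant features of its list, so it does not show that every feature moved the same way. The part of these lists in the ETn and IAP differences was not tested.

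**Figure D3:**
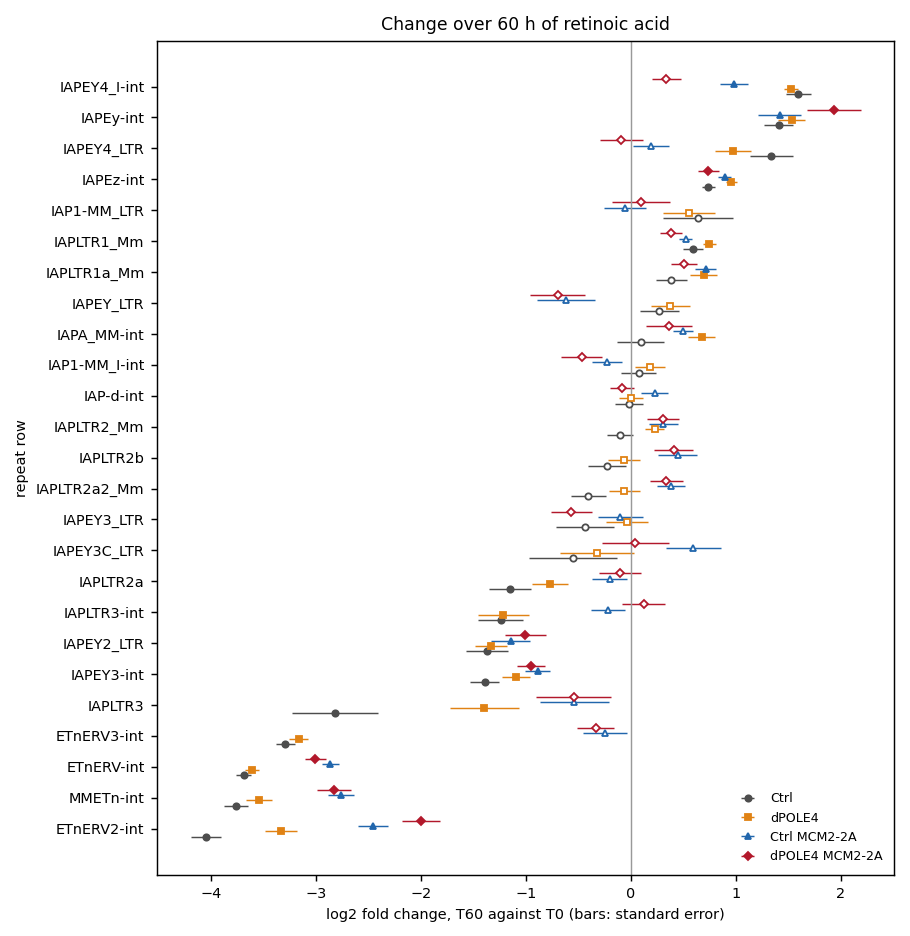
Log2 fold change from T0 to T60 with its standard error for the members tested in Ctrl, in each of the 4 kinds of cells, where filled symbols mark called changes. The ETn regions sit between -4.05 and -3.17 in the WT line, and ETnERV3-int sits near 0 in the MCM2-2A line at -0.25 and -0.34.

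Before RA, the MCM2-2A line differed from the WT line mainly in ETnERV3-int and IAPEy-int. At T0 without dTAG, 4 of 25 members were called and all 4 were lower in MCM2-2A, against 18.9% of all features called and 9.06% called as lower. ETnERV3-int stood at 207, 223 and 210.5 CPM in Ctrl and 21.9, 38.6 and 48.2 CPM in Ctrl MCM2-2A, groups that did not overlap (-2.58 ± 0.20, adjusted p = 1.6e-06). MMETn-int lay at 4714, 6032 and 6332 CPM in Ctrl MCM2-2A and ETnERV-int at 2027, 2168 and 2360 CPM, which overlapped the Ctrl ranges, with log2 fold changes of -0.24 ± 0.11 (adjusted p = 0.10) and -0.11 ± 0.07 (adjusted p = 0.22). IAPEz-int was lower at 367, 369 and 411 CPM and did not overlap Ctrl, but its change of -0.29 ± 0.06 (adjusted p = 0.0018) was under the fold cutoff. The other 2 called were the LTRs IAPLTR2_Mm (-0.71) and IAPLTR2a (-0.70). IAPLTR2a was not called without Ctrl T0 replicate 2 (-0.63, adjusted p = 0.017) or replicate 3 (-0.73, adjusted p = 0.010).

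ETnERV3-int kept this direction between the lines until T24 and turned at T60. Its log2 fold change in Ctrl MCM2-2A against Ctrl was -2.28 ± 0.19 at T12, -1.93 ± 0.12 at T24 and 0.45 ± 0.12 at T60, the last under the fold cutoff. In the dTAG libraries, which share no sample with these, it was -2.19 ± 0.17 at T0, -1.97 ± 0.11 at T12, -1.37 ± 0.15 at T24 and 0.64 ± 0.11 at T60. After 96 h without RA it stood at 169, 108 and 123 CPM in Ctrl and 37.6, 21.0 and 24.1 CPM in Ctrl MCM2-2A (-2.28 ± 0.20), and the dTAG libraries gave -1.86 ± 0.24. At T0, T12, T24 and 96 h the lines did not overlap in either treatment. The call at T60 under dTAG rested on dPOLE4 MCM2-2A replicate 3, without which the change was 0.56.

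At T60 the other ETn regions were higher in MCM2-2A, with and without POLE4. MMETn-int stood at 767, 923 and 796 CPM in Ctrl MCM2-2A and at 639, 592 and 832 CPM in dPOLE4 MCM2-2A, all above the Ctrl and dPOLE4 libraries, which lay between 429 and 573 CPM. Against Ctrl it was higher by 0.75 ± 0.10 (adjusted p = 3.9e-05), ETnERV-int by 0.71 ± 0.06 and ETnERV2-int by 1.16 ± 0.16. Under dTAG ETnERV2-int was called (0.92 ± 0.18), while MMETn-int (0.50 ± 0.11) and ETnERV-int (0.44 ± 0.08) passed the adjusted p alone. ETnERV2-int lost this call without dPOLE4 replicate 2 (0.82, adjusted p = 0.011).

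At T60 the IAPEY4 pair was lower in MCM2-2A. IAPEY4_I-int stood at 83.6, 103 and 75.6 CPM in Ctrl, 71.0, 74.8 and 79.2 CPM in dPOLE4, 40.7, 45.3 and 40.3 CPM in Ctrl MCM2-2A and 21.9, 23.7 and 28.3 CPM in dPOLE4 MCM2-2A. The MCM2-2A groups lay below each WT library and did not overlap with each other. The line difference was -1.07 ± 0.10 in DMSO and -1.62 ± 0.09 under dTAG for IAPEY4_I-int, and -1.09 ± 0.18 and -1.40 ± 0.18 for IAPEY4_LTR. IAPLTR3-int was higher in MCM2-2A in both (1.30 ± 0.22 and 1.27 ± 0.21), at 1.92, 1.97 and 1.51 CPM in Ctrl against 4.93, 5.03 and 3.61 CPM in Ctrl MCM2-2A. Under dTAG the major IAP pair was lower too, with IAPEz-int at -0.63 ± 0.08 and IAPLTR1_Mm at -0.58 ± 0.07, both near the cutoff. IAPEz-int was under it without dPOLE4 MCM2-2A replicate 1. IAPLTR1_Mm was under it without either of dPOLE4 replicates 1 and 2 or of dPOLE4 MCM2-2A replicates 1 and 2. The same held for IAPLTR1_Mm with scaling factors from genes alone (-0.563) and with at least 10 counts required in every library (-0.568). In all, 8 of 25 members were called at T60 in DMSO, against 16.9% of all features, and 11 of 26 under dTAG, against 20.4%, or 7 without dPOLE4 T60 replicate 2.

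**Figure D4:**
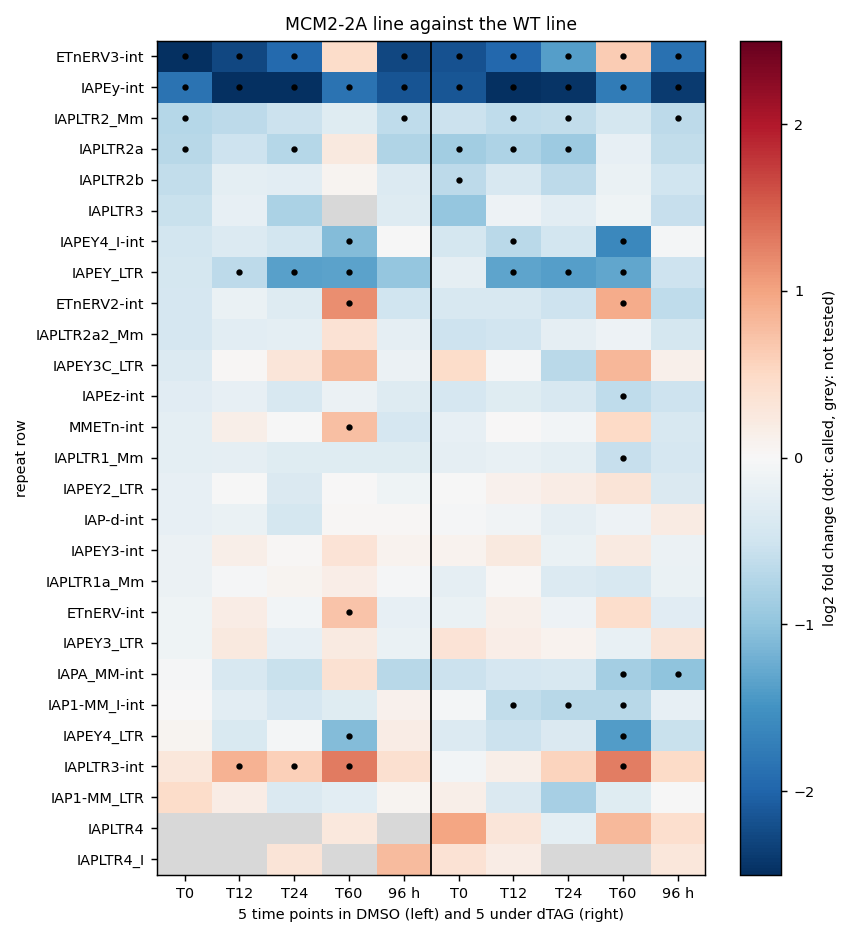
Log2 fold change of MCM2-2A against WT at T0, T12, T24, T60 and 96 h, in DMSO on the left and under dTAG on the right, for each member tested in any of these comparisons (dots mark called changes, grey cells were not tested, and colours stop at 2.5 in size). ETnERV3-int and IAPEy-int are lower in MCM2-2A at T0, T12, T24 and 96 h, and at T60 the ETn regions are higher, with ETnERV2-int at 1.16 in DMSO.

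IAPEy-int, an internal region, was lower in MCM2-2A at every time. In Ctrl MCM2-2A it stood at 1.32, 1.28 and 1.56 CPM at T0 and at 4.45, 3.54 and 3.25 CPM at T60, against 14.9, 12.01 and 12.5 CPM in Ctrl at T60. The log2 fold changes in DMSO were -1.85 ± 0.18 at T0, -2.51 ± 0.22 at T12, -2.67 ± 0.16 at T24, -1.85 ± 0.15 at T60 and -2.15 ± 0.25 at 96 h. Under dTAG they lay between -2.49 and -1.74, and the lines overlapped at no time in either treatment. IAPEY_LTR was lower at T12 (-0.66), T24 (-1.36) and T60 (-1.34) in DMSO. Its call at T12 was lost under DESeq2 (-0.65, adjusted p = 0.017), with the replicate block and in 5 of 6 fits that left out 1 library. At T0 it lay between 1.66 and 3.62 CPM in Ctrl MCM2-2A and between 3.31 and 4.14 CPM in Ctrl, groups that overlapped, and was not called.

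Genes of the Y chromosome are given beside these values as a description with no test, since the list and its split by position were drawn up after the values were seen and the genes were taken for their level in Ctrl, where they are high. Of 10 Y-linked genes with at least 1 CPM in Ctrl at T0, the 8 that start in the first 2 Mb of the chromosome in mm10 (Zfy1, Uba1y, Kdm5d, Eif2s3y, Gm29650, Uty, Ddx3y and Usp9y) summed to between 109 and 247 CPM in the WT libraries and between 8.04 and 19.0 CPM in the MCM2-2A libraries. The other 2, Gm47283 and Gm21742, had means of 587 and 20.2 CPM in Ctrl and 408 and 24.0 CPM in Ctrl MCM2-2A at T0. At T60 their means were 554 and 20.8 CPM in Ctrl and 576 and 32.9 CPM in Ctrl MCM2-2A. Within each line the sum of the 8 genes was lower at T60 than at T0. Its group means went from 220 to 119 CPM in Ctrl and from 18.2 to 10.6 CPM in Ctrl MCM2-2A. IAPEy-int went the other way, to 266% of its T0 mean in Ctrl and 270% in Ctrl MCM2-2A. The part of the region of the 8 genes in the IAPEy-int and IAPEY_LTR values was not tested, since each subfamily pools its copies.

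**Figure D5:**
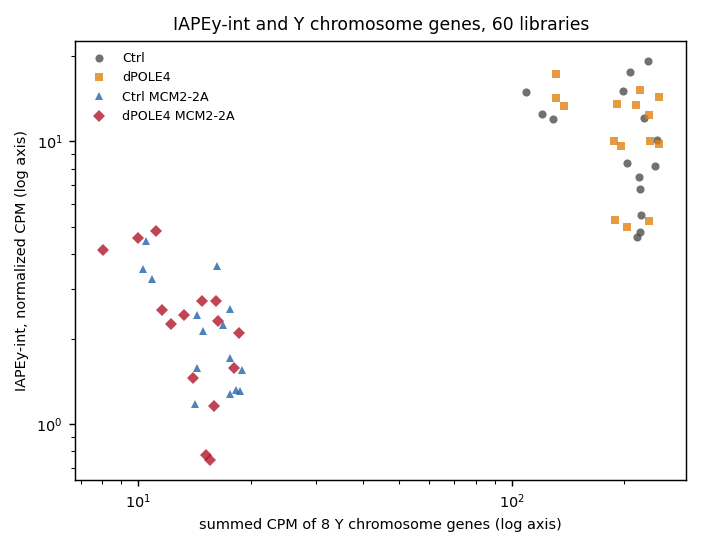
IAPEy-int in normalized CPM (log axis) against the summed CPM of 8 Y chromosome genes (log axis), with 1 point for each of the 60 libraries. The MCM2-2A libraries sit at 8.04 to 19.0 CPM of the Y chromosome genes and the WT libraries at 109 to 247 CPM, while IAPEy-int varies with RA time inside each line.

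At the other times the line difference was called in 3 to 7 of the tested members, or 11.5% to 25.9% of them. Of the other repeat subfamilies tested, 1.94% to 4.47% were called. The member share lay above that of all features at T12 and T24. It lay below at T0 under dTAG and at 96 h. At T12 in DMSO, 4 of 25 were called (14.5% of all features), falling to 2 without Ctrl replicate 3 or Ctrl MCM2-2A replicate 1 or 2, since IAPEY_LTR and IAPLTR3-int (0.87 ± 0.18) then missed the threshold. At T24, 5 of 26 were called (17.3% of all features), falling to 3 without Ctrl replicate 1 or Ctrl MCM2-2A replicate 2, which took away IAPLTR2a (-0.70) and IAPLTR3-int (0.59). IAPLTR3-int lost its call in 5 of 6 such fits and under DESeq2 (adjusted p = 0.025). At 96 h, 3 of 26 were called (15.7% of all features), with IAPLTR2_Mm at -0.63 ± 0.16, whose call was lost in 4 of 6 fits that left out 1 library. There the replicate block and DESeq2 each added IAPA_MM-int and IAPEY_LTR, which gave 5, and 6 were called without Ctrl MCM2-2A replicate 1. Under dTAG 4 of 27 were called at T0 (18.6%), 7 of 27 at T12 (18.4%), 6 of 26 at T24 (16.1%) and 4 of 27 at 96 h (16.4%). The count at T0 fell to 2 without dPOLE4 replicate 3, which removed IAPLTR2a (-0.87) and IAPLTR2b (-0.66). The call of IAPLTR2b was lost in each of the 6 fits that left out 1 library and under DESeq2 (adjusted p = 0.014). With the block, IAPLTR2b (-0.71) was added at T24 and ETnERV2-int (-0.68) at 96 h.

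POLE4 depletion moved few of these subfamilies past the threshold. In the WT background no member was called by edgeR at T0, T12, T24, T60 or 96 h, where 0, 0, 0, 0.193 and 0% of all features were called. The 0% at 96 h depended on the setting, since the replicate block called 142 features there and DESeq2 called 25. No member was among them. DESeq2 also called no member at the other times, and 1, 1, 3, 6 and 3 members had an unadjusted p under 0.05 in edgeR. The nearest was IAPEz-int at T60, with 759, 762 and 761 CPM in Ctrl and 897, 920 and 966 CPM in dPOLE4. These did not overlap, and the log2 fold change was 0.29 ± 0.06 with an adjusted p of 0.019. After 96 h MMETn-int stood at 5255, 5753 and 5583 CPM in Ctrl and at 4631, 4082 and 3955 CPM in dPOLE4, also with no overlap (-0.38 ± 0.08, unadjusted p = 0.00041, adjusted p = 0.12).

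In the MCM2-2A background 1 call was made in all. IAPEY4_I-int at T60 was lower in dPOLE4 MCM2-2A than in Ctrl MCM2-2A, by the library values given above (-0.76 ± 0.10, adjusted p = 0.0014). It was the only one of 26 members called, against 2.25% of all features, and the count was 0 without Ctrl MCM2-2A replicate 3 or dPOLE4 MCM2-2A replicate 2, and 2 without dPOLE4 MCM2-2A replicate 3. No member was called by edgeR at T0, T12, T24 or 96 h (0.0715, 0.404, 1.02 and 0.304% of all features), with 2, 7, 5 and 6 members at an unadjusted p under 0.05 and 0, 1, 1 and 0 called by DESeq2. The 1 in DESeq2 was ETnERV3-int both times, at 13.6, 18.1 and 12.7 CPM against 17.8, 22.8 and 28.7 CPM at T12 and at 11.5, 12.7 and 17.8 CPM against 18.3, 18.3 and 26.3 CPM at T24. The groups overlapped at T12 and not at T24, where edgeR gave 0.62 with an adjusted p of 0.040 and the replicate block gave 0.59 and a call (adjusted p = 0.00049). Over all features the block called 143 at T0 and 307 at 96 h, with no member at either time.

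The effect of depletion was not shown to differ between the backgrounds for any member. The interaction was called in 0 members by edgeR and 0 by DESeq2 at T0, T12, T24, T60 and 96 h (0.00526, 0.0159, 0.0351, 0.1 and 0% of all features), with 1, 2, 3, 8 and 1 members at an unadjusted p under 0.05. The lowest adjusted p was 0.035, for IAPEz-int at T60, where the log2 difference was -0.48 ± 0.10. IAPEz-int there was higher after depletion in the WT line and stood at 694, 684 and 726 CPM in Ctrl MCM2-2A and 558, 571 and 684 CPM in dPOLE4 MCM2-2A.

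The cells with both defects were also set against Ctrl, with the same Ctrl libraries as in the comparisons above. At T60, 7 of 25 members were called, against 21.8% of all features. ETnERV2-int (1.44 ± 0.19), IAPLTR3-int (1.38 ± 0.22) and ETnERV3-int (0.66 ± 0.14) were higher, the last under the fold cutoff without Ctrl replicate 1 (0.52) or dPOLE4 MCM2-2A replicate 3 (0.575), and IAPEY4_I-int (-1.84 ± 0.13), IAPEY4_LTR (-1.61), IAPEy-int (-1.56) and IAPEY_LTR (-1.26) were lower. After 96 h, 5 of 27 were called, against 20.6%, all of them lower (7.78% of all features were lower). MMETn-int stood at 3864, 2713 and 2837 CPM in dPOLE4 MCM2-2A, below the 5255 to 5753 CPM of Ctrl (-0.77 ± 0.12, adjusted p = 0.00018). ETnERV3-int (-1.67), IAPEy-int (-1.86), IAPA_MM-int (-1.05) and ETnERV2-int (-0.79) made up the rest, and 3 were called without Ctrl replicate 2 or without dPOLE4 MCM2-2A replicate 3. IAPA_MM-int and ETnERV2-int each lost their call in 4 of 6 fits that left out 1 library, and ETnERV2-int also under DESeq2 (adjusted p = 0.018).

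A list of 30 genes that act in silencing retrotransposons was read beside the members, and all 30 were tested. Over 60 h of RA in Ctrl, 14 fell and 1 rose. Of all features, 50.6% were called, 26.9% as higher and 23.7% as lower. The number called in either direction was thus near the share over all features. The directions were not, since nearly all called genes of the list fell. The list was chosen with earlier results of these data known, so its directions are given as a description only. The list median was -0.56, against -0.01 over all features. Among them Dnmt3b, a de novo DNA methyltransferase, had -2.28 ± 0.07, Trim28, the corepressor of KRAB zinc finger proteins, had -1.62 ± 0.08, and Setdb1, an H3K9 methyltransferase, had -0.91 ± 0.06. Suv39h1, another H3K9 methyltransferase, had 1.68 ± 0.07. Between the lines in DMSO at T0, 3 were higher in MCM2-2A and 0 lower by edgeR, a smaller share than the 18.9% of all features called, and 18 of the 30 had an unadjusted p under 0.05. These were Dnmt3a (1.48 ± 0.06), Mphosph8, a subunit of the HUSH silencing complex (1.40 ± 0.06), and Uhrf1. Mphosph8 was higher and called at all 5 times in both treatments. At T60, where 16.9% of all features were called, Dnmt3b (0.75) and Cbx5 (0.59) were also higher and Cbx1 (-0.74) was lower. The Cbx differences were not limited to T60. Cbx1 was called as lower at T12, T24 and 96 h in DMSO too, and at all 5 times under dTAG. Cbx5 was called as higher at T12 and T24 in DMSO too. Both Cbx genes encode HP1 proteins, which bind methylated H3K9. After POLE4 depletion edgeR called none of the list at any time in either background, with 1 to 12 of the 30 genes at an unadjusted p under 0.05. The part of these genes in the ETn and IAP values was not tested.

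The members did not vary as a single set. Over the 16 group means of the RA experiment, which share lines and times, log2 CPM of MMETn-int had a Pearson r of 0.996 with ETnERV-int and -0.774 with IAPEz-int. IAPEz-int had 0.948 with IAPLTR1_Mm, and IAPEY4_I-int had 0.962 with IAPEY4_LTR. ETnERV3-int stood apart from the other ETn regions, with 0.425 with MMETn-int, and its closest member was IAPLTR3 at 0.711. ETn took 10.2% of repeat counts in Ctrl at T0 and 1.18% at T60, and IAP took 0.726% and 1.78%.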

How the data were processed

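The members and the gene lists were chosen with earlier results of these data known. Per the paper's methods, the authors trimmed reads with cutadapt 4.2, aligned them to mm10 with STAR with multiple alignments kept, and counted genes (GENCODE M25) and repeat subfamilies with TEcount. The deposited values are raw counts, neither normalized nor pooled. Here, in R 4.3.3, each comparison was fitted on its own groups with edgeR 4.0.16 (filterByExpr with a minimum count of 10 and total of 15, TMM over all features, quasi-likelihood F test, Benjamini-Hochberg adjustment over all features tested). CPM used TMM library sizes within each table. TMM factors lay between 0.895 and 1.07, and depth sets the precision of scarce subfamilies. Every member may be named. Library values are given for called members (at most 3 per direction and comparison) and the largest IAP and ETn subfamilies. Same-numbered replicates deviated together, with r above 0.1 in every pair, in 12 of 29 comparisons. The main fits used no pairing in any comparison, which entered only through the replicate block as an alternative. The alternatives were DESeq2 1.42.0, its size factors, TMM from genes, other filters, no fold cutoff, a replicate block and each library left out. On simulated counts the fit was tested. No column was left unused, and no repeat sequences were used here.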

Additional observations from a re-analysis of the deposited data

Results flagged for a closer look

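The change over 60 h of RA differed between the MCM2-2A and WT lines in 10 tests of a member, by the interaction of line and time in edgeR. With DMSO the log2 differences (MCM2-2A minus WT) were 3.01 for ETnERV3-int, 2.26 for IAPLTR3, 1.57 for ETnERV2-int, 0.97 for MMETn-int, 0.80 for ETnERV-int and -1.18 for IAPEY4_LTR. With dTAG they were 2.82 for ETnERV3-int, 1.32 for ETnERV2-int, 0.60 for ETnERV-int and -1.20 for IAPEY4_I-int. IAPLTR3 was at or below 1.59 CPM in every DMSO library of T0 and T60, and DESeq2 gave it an adjusted p of 0.012.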

How the results depend on the processing

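Of 142 called changes of named members, 835 of 848 values under another setting kept direction and call, 13 lost the call and 0 reversed; leaving out 1 library lost 93 of 912 and reversed 0. The cause of lost calls was not tested. Without the fold cutoff, members called for MCM2-2A against WT became 13 at T24 in DMSO, and 7 at T0 and at 96 h under dTAG; for both defects against Ctrl they became 11 at T60 and 8 at 96 h, and 3 for T24 against T12 in Ctrl. DESeq2 gave 5 for the line difference at 96 h in DMSO, 1 for depletion in MCM2-2A at T12 and at T24, and 2 for T24 against T12. With no filter on low counts the same 4 gave 5, 1, 1 and 2, depletion in WT at T60 gave 1, depletion in MCM2-2A gave 2 at T60 and 1 at 96 h, its interaction gave 1 at T60, and the line difference in RA response under dTAG gave 8. The replicate block gave 2 for the line difference at T12 in DMSO, where the numbers did not pair the samples (mean r -0.203), 5 at 96 h, 1 for depletion in MCM2-2A at T24, 2 for T24 against T12 and 6 (from 4) for the line difference in RA response under dTAG, where DESeq2 also gave 6, and moved no other count of members by over 1.5 times. Leaving out 1 library gave ranges of 2 to 5 (T12), 3 to 6 (T24) and 2 to 6 (96 h) for the line difference in DMSO, 2 to 6 (T0) and 7 to 11 (T60) under dTAG, 0 to 2 for depletion in MCM2-2A at T60, 3 to 6 for both defects at 96 h and 0 to 3 for T24 against T12.

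Changes near 0 that were not called turned sign. With the block, MMETn-int was -0.0021 for the line difference at T12 under dTAG and 0.0033 for depletion in WT at T60, and with genes-only scaling IAPLTR1_Mm was -0.0033 for depletion in WT at T0. With 1 library left out, MMETn-int ranged from -0.035 to 0.29 (T12) and -0.10 to 0.097 (T24) for the line difference in DMSO, from -0.13 to 0.098 (T12) and -0.20 to 0.097 (T24) under dTAG, from -0.064 to 0.21 (T12) and -0.087 to 0.15 (T60) for depletion in WT, from -0.21 to 0.12 for depletion in MCM2-2A at T12, and from -0.11 to 0.17 for T24 against T12. IAPLTR1_Mm ranged from -0.058 to 0.067 (T0), -0.032 to 0.10 (T24) and -0.18 to 0.095 (96 h) for depletion in WT, from -0.036 to 0.12 for depletion in MCM2-2A at T0, from -0.030 to 0.18 for T60 against T24, and from -0.18 to 0.034 for the line difference in RA response in DMSO. ETnERV-int ranged from -0.034 to 0.059 (T60) and IAPEz-int from -0.013 to 0.065 (96 h) for depletion in WT, and IAPEz-int from -0.0043 to 0.087 for depletion in MCM2-2A at T12.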

Other observations

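Other features had a course close to that of the members. Over the 16 group means of the RA experiment and 21302 features outside the members, the summed ETn log2 CPM was closest to ERVB7_1-LTR_MM (Pearson r 0.997) and RLTR13G (0.995), both repeat subfamilies, and to the genes Gm6445 (0.994) and 1700019D03Rik (0.992). The summed IAP log2 CPM was closest to Faf2, Notch2, Wdr37, Sec62 and Hdgfl3, with r between 0.968 and 0.971. For IAPEy-int the same was read after its values were seen, and it was closest to Ykt6 (0.981), Map3k3, Donson, Synrg and Srp68, of which all but Donson lie on chromosome 11. These points share lines and times, and no test was made.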
